A study of Sus scrofa with 16 samples.

Results

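The probes described here are those whose signal fell into 2 separate levels among 16 pig livers. Levels are log2 processed signal minus the 75th percentile of each array, so a level of 0 is the signal that 75% of the spots on that array do not exceed. The probes were selected on these levels. A probe was taken when it was well above background in at least 8 pigs and when its sorted levels held a gap of over 1.5 with at least 4 pigs on each side. Of 43603 probes on the array, 30097 were measured in that many pigs, 43 had such a gap, 7 of those were left out by the rule of choice, and 36 (0.12% of the 30097) remained. Since the probes were chosen by their levels, their gaps and their divisions of the pigs are given as descriptions with no test. The line of a pig played no part in the choice, so the comparison between the lines is tested.

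The arrays measured total RNA of liver from 8 pigs of a low-RFI line (strain RFIneg) and 8 pigs of a high-RFI line (strain RFIpl). Residual feed intake (RFI) is the feed an animal eats beyond what its growth and maintenance predict, and the pigs of the low line eat less than predicted. All pigs weighed 20 kg and had free access to feed, and each was measured on 1 array. Age and sex were not among the labels used here, and with 1 line in each direction, a difference due to the selected trait cannot be told apart from whatever else distinguishes these lines.

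A transcript whose level differs little within a group of animals gives levels spread around 1 centre, while a transcript present in some animals and scarce in others gives separate levels. The signal of an oligonucleotide probe depends on how much of the transcript is there and on how well the transcript pairs with the probe, and these cannot be told apart from the signal of 1 probe. In bulk liver, likewise, fewer cells of a type and less RNA per cell cannot be told apart. Liver is made mostly of hepatocytes, which secrete plasma proteins and run amino acid, lipid and drug metabolism.

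The 16 arrays lay on 4 slides with 2 pigs of each line on each slide. Arrays had a 75th percentile of 320.0 to 508 intensity units, a median local background of 29 to 40 units, and 28576 to 34977 probes well above background. The highest of these counts was that of high-RFI pig 6, the others reaching 31808. Hepatocyte markers bore out the tissue, with a mean level of 8.38 to 8.98 over 7 measured genes (ALB, TTR and others) in every pig. Markers of T and NK cells were at −3.79 to −1.36, markers of Kupffer cells, the resident macrophages, at 3.38 to 4.95. Replicated probes varied more on the high-RFI arrays, their median coefficient of variation being 8.04 ± 0.66% there and 6.97 ± 0.50% on the low-RFI arrays (SD, n = 8 each, exact two-sided permutation p = 0.00373). The software marked 5 arrays for noise, all of high-RFI pigs.

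All 36 probes are 60 bases long and printed once on the array, and none had an outlier spot or a saturated spot in any pig. None of the 36 shared 20 bases in a row with a probe not listed under the same accession. Their GC content was 35.0 to 48.3% with a median of 38.3%, against a median of 41.7% over all measured probes. The files describe 13 of the 36 (36.1%) as unknown, against 21.3% of all measured probes. In 19 the gene name is that of an assembled transcript (TC followed by a number), in part with a protein description beside it. One gene symbol was tied to a RefSeq accession, ALOX12, whose accession stands for ALOX15 in the current RefSeq table. The others are called below by the protein or clone in their description or by their TC or probe number. A protein name repeats the description only, and some rest on a partial match, such as CCDC17 (8%), arylsulfatase B (11%) and C8orf37 (39%). Others with a partial match are called by TC number, such as TC414168 (9%, a yeast protein) and TC463335 (12%, a bacterial protein). By gene symbol, none lay in any of 10 gene families looked at. Among these were 64 measured probes of cytochromes P450, 53 of MHC genes, 26 of interferon response genes, 198 of solute carriers and 225 of ribosomal proteins. Of the 36 only ALOX12 carried a gene symbol, so the others could not have been found in a family. The sequence AATAAA, the common signal for polyadenylation, stood in 7 of the 36 probes (19.4%) and in 10.5% of all measured probes, and its reverse complement TTTATT in 0 of the 36 and in 4.29%.

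The probe sequences below are those on which the description turns, as given in the array files, 5′ to 3′, with AATAAA in capitals where it occurs. They are the 6 named enzymes and plasma or secreted proteins with the second probe of ALOX12, the pair of unannotated probes with nearly opposite divisions, and the 2 probes that divided the pigs alike. Genome positions of the probes were not analysed here.
AFMID, probe A_72_P033771: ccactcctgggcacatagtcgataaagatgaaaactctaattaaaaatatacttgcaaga
COX8 liver form, probe A_72_P171311: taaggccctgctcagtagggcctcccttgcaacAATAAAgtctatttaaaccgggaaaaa
ALOX12, probe A_72_P440316: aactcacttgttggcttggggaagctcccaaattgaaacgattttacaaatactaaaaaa
ALOX12, second probe A_72_P146721: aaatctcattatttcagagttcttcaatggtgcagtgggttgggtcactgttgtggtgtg
ITIH1, probe A_72_P419714: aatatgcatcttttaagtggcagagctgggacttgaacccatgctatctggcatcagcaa
Arylsulfatase B, probe A_72_P172331: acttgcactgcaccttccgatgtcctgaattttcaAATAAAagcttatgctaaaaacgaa
SCGB1A1, probe A_72_P236992: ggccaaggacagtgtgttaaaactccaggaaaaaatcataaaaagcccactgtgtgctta
Unknown TC423681, probe A_72_P066171: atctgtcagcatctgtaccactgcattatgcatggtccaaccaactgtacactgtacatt
Ovary EST BP461346, probe A_72_P207097: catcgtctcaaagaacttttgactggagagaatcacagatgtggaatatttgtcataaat
CCDC17, probe A_72_P097651: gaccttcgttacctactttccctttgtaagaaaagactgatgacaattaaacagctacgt
Testis EST CX058359, probe A_72_P013126: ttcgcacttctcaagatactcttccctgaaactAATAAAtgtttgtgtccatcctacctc

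The gaps ran from 1.52 to 5.34 with a median of 2.0, while the median over all measured probes, at the same 4 or more pigs a side, was 0.14. A gap of over 2 was found in 18 of the 36 and of over 3 in 10. Both levels were well above background in every pig for 15 probes, and these are the ones whose lower level is itself a measurement. For 11 probes no pig of the lower level was well above background, so the gap there is only bounded, and for 10 probes some pigs of the lower level were. The mean signal over the pigs ran from −5.53 to 2.27, with a median of −2.12 against −1.17 over all measured probes. Nearest the threshold on the inside were the unknown probe A_72_P327543 (gap 1.522), TC435990 (1.534) and the liver cDNA AK233644 (1.537). Nearest on the outside were HUS1 of the DNA damage checkpoint clamp (1.497), the EST BI401239 (1.497) and the EST AJ961464 (1.46).

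The widest gap belonged to TC423681, a transcript of unknown identity. In all, 10 pigs lay between −3.24 and −2.65 and 6 pigs between 2.69 and 3.82, a gap of 5.34 or 40.5-fold. The upper level held low-RFI pigs 1 (3.26), 2 (3.51), 5 (3.82) and 6 (2.90) and high-RFI pigs 1 (2.69) and 7 (2.87). The spread of the pigs within each level was far smaller than the gap between the levels.

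AFMID, the arylformamidase that makes kynurenine in the breakdown of tryptophan, had the next widest gap among the 15 probes well above background in all pigs, with 10 pigs at −4.03 to −2.36 and 6 pigs at 1.60 to 2.37. The pigs at the upper level were low-RFI pigs 3 (2.36), 5 (2.20) and 8 (2.13) and high-RFI pigs 2 (1.98), 3 (2.37) and 8 (1.60). The gap was 3.95 or 15.5-fold, with 3 pigs of each line above it. Low-RFI pig 1, at −2.36, was the highest of the lower level.

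The probe described as the liver form of subunit VIII of cytochrome c oxidase (COX8), the last complex of the respiratory chain, had 9 pigs at −1.98 to −1.53 and 7 at 1.78 to 2.99. Low-RFI pigs 4 (2.99), 5 (2.02) and 8 (2.44) and high-RFI pigs 2 (1.78), 3 (2.16), 5 (2.21) and 7 (2.02) were high, and the gap was 3.31 or 9.95-fold. The lower level was narrow here and the upper one wider. Probes of COX8H, the heart form of this subunit, were well above background in only 3 and 2 pigs.

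ALOX12, a lipoxygenase that oxygenates arachidonic acid, had 8 pigs at −4.13 to −2.75 and 8 at −0.88 to 0.46, a gap of 1.87 or 3.65-fold. The upper level held low-RFI pigs 1 (−0.16), 2 (−0.52) and 4 (0.29) and high-RFI pigs 1 (−0.32), 2 (−0.14), 3 (0.46), 4 (−0.86) and 6 (−0.88). By the series of sample numbers in the file names, 7 of these 8 pigs were in the first series and 1 in the second, the most uneven split among the 36 probes. All 36 probes had both levels in each series.

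Arylsulfatase B (ARSB) is the lysosomal enzyme that removes sulfate from dermatan and chondroitin sulfate. The probe of TC409035, described as a partial match (11%) to it, showed 3 levels rather than 2. There were 7 pigs at −4.38 to −3.55, the 3 pigs low-RFI 1, high-RFI 1 and high-RFI 5 at −0.68, −1.51 and −1.12, and 6 pigs at 1.06 to 2.49. The gaps between these levels were 2.05 and 1.75. The upper 6 were low-RFI pigs 3 (1.73), 4 (1.76), 6 (2.49) and 7 (2.34) and high-RFI pigs 4 (1.66) and 6 (1.06).

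ITIH1 encodes a heavy chain of the inter-alpha-trypsin inhibitors, plasma proteins made by hepatocytes that bind hyaluronan. The probe of TC462557, described as pig ITIH1, had 8 pigs at 0.26 to 1.28 and 8 at 2.91 to 4.34, a gap of 1.62 or 3.08-fold. Low-RFI pigs 1 (3.13), 2 (2.91), 7 (3.57) and 8 (4.20) and high-RFI pigs 3 (3.15), 6 (4.34), 7 (3.77) and 8 (3.28) were high.

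SCGB1A1, the secretoglobin of airway club cells also called uteroglobin, had 8 pigs at 1.40 to 3.32 and 8 at −6.66 to −0.54. The lower level was spread out. Low-RFI pig 4 at −6.66 was not well above background and the next pig, at −3.06, was, so their distance is not exact, while the gap that divided the pigs 8 and 8 was 1.94. The upper level held low-RFI pigs 6 (2.25) and 8 (2.36) and high-RFI pigs 1 (2.08), 2 (2.13), 3 (1.40), 4 (1.60), 5 (3.32) and 6 (1.60). In SCGB1A1, AK233644 and the testis EST CV871009 a larger gap set apart fewer than 4 pigs.

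The other 9 of the 15 bright probes had gaps of 1.53 to 3.16. The ovary EST BP461346 had 8 pigs at −1.81 to −1.34 and 8 at 1.82 to 3.74, with 4 pigs of each line at each level. For the unknown probe A_72_P292173, 7 pigs lay at 2.77 to 3.41 and 9 at −0.93 to 0.72. For the unknown TC421253 the 4 lower pigs (low-RFI 2 and 4, high-RFI 4 and 7) lay at −3.18 to −2.76 and the 12 others at −0.44 to 0.75. C8orf37, a cilium-associated protein, had 5 low-RFI pigs at −1.42 to −0.54 and the other 11 pigs at −4.51 to −3.24. The unknown A_72_P138296 had low-RFI pigs 3 (1.75), 4 (1.22), 6 (1.10) and 7 (0.90) high and the 12 others at −4.60 to −1.46.

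For the unknown A_72_P421739 the 5 lower pigs (low-RFI 1 and 3, high-RFI 2, 5 and 7) lay at −1.82 to −1.38 and the 11 others at 0.57 to 1.89. For the testis EST CV871009 the lower level held low-RFI pigs 2 (−2.42), 3 (−3.70), 5 (−3.34) and 7 (−2.14), and the 12 upper pigs ranged from −0.56 to 4.03. The lymph node cDNA AK234022 was at −2.55 to −1.98 in low-RFI pigs 1, 5 and 7 and high-RFI pigs 4, 5 and 7, and at −0.41 to 1.05 in the 10 others. TC435990 was at −2.20 to −1.14 in low-RFI pigs 1, 2, 5 and 8 and high-RFI pigs 2, 6 and 7, and at 0.40 to 1.81 in the 9 others. The gaps of these 4 probes were 1.95, 1.58, 1.57 and 1.53, and in each of them the lower level was narrower than the upper.

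Among the dim probes, TC414168 had 4 high-RFI pigs (2, 4, 5 and 6) at −6.34 to −5.19, none of them well above background, and the 12 other pigs at −0.84 to 1.08. Its gap was at least 20.4-fold, a bound in which a dim pig counts at the higher of its own level and the lowest level well above background on its array. TC515624 had 4 high-RFI pigs (2, 4, 6 and 7) at −7.37 to −6.90 and 12 pigs at −2.74 to −1.10, a gap of at least 5.64-fold. Here and below, such a bound holds only for this signal and this way of counting. TC415907 in high-RFI pig 7, for example, was not well above background at −5.07, over that array's lowest such level of −5.55. With another background correction (normexp, offset of 50), which shrinks dim differences, the log2 gaps of TC414168 and TC515624 were 1.57 and 0.61. High-RFI pigs 2, 4 and 6 were at the lower level of both probes.

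The EST BF191498 was at −1.12 to −0.20 in low-RFI pigs 3 and 4 and high-RFI pigs 3, 6 and 7, and at −6.29 to −5.03 in the 11 others, a gap of at least 15.0-fold. TC463335 had 8 pigs at −0.82 to 0.19 and 8 at −7.62 to −4.19, a gap of at least 10.3-fold. TC478935 had 8 pigs at −1.78 to 0.15 and 8 at −6.18 to −4.54, a gap of at least 6.77-fold. In both, the upper level held more high-RFI than low-RFI pigs, 6 against 2 and 7 against 1.

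For the unknown A_72_P082291, the unknown TC513680 and the EST BG834976 no lower pig was well above background, and the gaps of 3.46, 3.01 and 2.65 were bounded at 2.37-fold, 2.05-fold and 1.77-fold. For the EST DY427616, the unknown A_72_P327543 and TC415907 no bound is given, since some pigs of their upper level were not well above background either. The probe whose description likens it to WIPF1, a regulator of actin assembly, had 9 pigs at −4.38 to −2.63 and 7 that were not well above background, a gap of at least 1.80-fold.

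TC426618 was low in low-RFI pigs 3 (−7.45), 7 (−6.95) and 8 (−7.15) and high-RFI pig 8 (−6.83), and lay at −4.54 to −2.39 in the 12 others, a gap of at least 1.51-fold. TC449581 was low in low-RFI pigs 5 (−7.57) and 6 (−7.05) and high-RFI pigs 3 (−7.81), 5 (−5.87) and 8 (−7.30), and lay at −4.08 to −2.19 in the 11 others, a gap of at least 2.06-fold. TC415907 was at −7.55 to −7.04 in low-RFI pig 2 and high-RFI pigs 2, 4 and 5, and at −5.10 to −3.08 in the 12 others. None of the lower pigs of these 3 probes was well above background.

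In 3 other dim probes some lower pigs were well above background. TC419114 had 7 pigs at −6.04 to −4.19, 5 of them well above background, and 9 at −2.58 to −1.17, a gap of at least 3.05-fold. The unknown A_72_P177001 had 6 pigs at −7.62 to −5.67 and 10 at −4.0 to −2.16, a gap of at least 2.36-fold. The unknown A_72_P347013 had 6 low-RFI pigs at −6.98 to −5.30 and the 10 other pigs at −3.71 to −1.97, a gap of at least 2.88-fold.

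The 36 probes divided the pigs in 35 different ways. Of the 630 pairs of probes, 1 pair had the same division, 0 pairs differed by 1 pig and 4 pairs differed by 2 pigs or were opposite but for 2 pigs. The pair with the same division was the testis EST CX058359 and TC478200, called CCDC17 here after its partial match (8%) to a dog coiled-coil protein. High-RFI pigs 1, 4, 5 and 8 were low for both, at −5.39, −3.91, −5.11 and −5.55 for CCDC17 and at −4.40, −4.54, −4.37 and −4.84 for CX058359. The other 12 pigs were at −2.18 to −0.61 for CCDC17 and at −1.95 to −0.45 for CX058359. These probes share no stretch of 20 bases, and their gaps were 1.73 and 2.43.

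The pairs that came near to each other were TC414168 with TC515624, TC414168 with TC415907, the COX8 probe with the unknown A_72_P292173, and TC423681 with BP461346. The COX8 probe and A_72_P292173 had 6 upper pigs in common, 3 of each line (low-RFI 4, 5 and 8, high-RFI 3, 5 and 7), and parted over low-RFI pig 1 and high-RFI pig 2. TC423681 and BP461346 were opposite in 14 pigs, and low for both in high-RFI pigs 4 and 6. No other pair came as near.

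No pig was at 1 level throughout. The number of probes at the upper level per pig ran from 17 (low-RFI pig 5) to 31 (high-RFI pig 3) of 36, and high-RFI pig 6, with the most probes above background, was at the upper level in 24. On single slides, 16 of the 36 probes had both levels on each of the 4 slides. Both levels occurred in each line for 27 probes.

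Among other probes of the same genes, where the array had them, only the second ALOX12 probe divided the pigs alike. The second ALOX12 probe, A_72_P146721, was at −0.71 to 0.12 in the 8 pigs low for the first and at 0.52 to 1.56 in the 8 pigs high for it, without overlap, at a gap of 0.40. One more probe, linked only by its description as human 12-lipoxygenase, was not well above background in any pig. It may be of another gene, since the accession of the first ALOX12 probe stands for ALOX15 in RefSeq. In ITIH1 the other 3 probes did not separate the pigs. Their levels were 8.24 to 8.94, 6.67 to 7.17 and 3.32 to 4.43 over all 16 pigs, each with overlap between the pigs high and low for TC462557. The other arylsulfatase B probe, at −0.07 to 1.21, had no separate levels, nor had the second probe described like TC435990, at −0.26 to 1.81. The second C8orf37 probe was at −1.09 to 0.25 in the 5 upper pigs and at −1.94 to −0.97 in the 11 others, an overlap of 0.12.

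Among all measured probes with a gap of over 0.6, a limit set after the data were seen, few had the division of one of the 36. C-reactive protein (CRP), an acute phase protein of hepatocytes, had a probe (A_72_P010516) with the division of TC423681. It was at 3.89 to 5.46 in the 6 pigs high for TC423681 and at 1.90 to 2.97 in the 10 others, a gap of 0.92. The other CRP probe was at 6.06 to 8.29 in those 6 pigs and at 3.24 to 6.68 in the others, with overlap. Decorin (DCN), a proteoglycan that binds collagen, had the division of ALOX12, at −1.43 to −0.27 in the upper 8 pigs and −2.75 to −2.07 in the lower 8. The skin cDNA AK349920 had it too, with a gap of 0.68. The unknown A_72_P118156 had the opposite division to TC415907, with a gap of 0.66. Since these probes were found by their division, the match itself is a description.

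Between the lines, 1 of the 36 probes was called in limma at a Benjamini-Hochberg adjusted p under 0.05 over all 30097 measured probes, of which 3 (0.00997%) were called. This was the liver cDNA AK233644, which fell in low-RFI liver. Its levels had a lowest, median and highest value of −5.66, −3.55 and −0.66 in low-RFI and −1.18, 1.22 and 2.65 in high-RFI pigs. The change was −4.38 (SE 0.575, adjusted p = 0.00929), low-RFI minus high-RFI, and the values within single slides ran from −4.84 to −3.39. Its division followed the lines except for high-RFI pig 6, which at −1.18 lay between the low-RFI pigs 3 (−0.66) and 4 (−2.15), so the lines overlapped. Low-RFI pig 6, at −5.66, was not well above background, so the change of AK233644 is not exact. Under normexp, a background correction with an offset of 50, the change was −3 (adjusted p = 0.00218 in limma). With array noise as a covariate the change was −4.78 and AK233644 was not called (adjusted p = 0.245). Without the 5 marked arrays, all of high-RFI pigs, fewer pigs of that line were left. The change was then −4.67 (adjusted p = 0.421). In each of these fits 0 of the 30097 probes were called. The part of array noise in the difference was not tested further.

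None of the other 35 probes was called, with adjusted p of 0.229 to 0.999 in limma. At an unadjusted p under 0.05 there were 14 of the 36, of which 8 had lower and 6 had higher levels in the low line, where the share over all measured probes was 5.46%. By the exact two-sided permutation test over the pigs 13 of the 36 had an unadjusted p under 0.05, against 5.54% of all, and 0 of 36 and 0 over all probes passed after adjustment, where the smallest p the design can give is 0.00016. Levels of 0 of the 36 were free of overlap between the lines, against 0.0432% of all. The median size of the change was 1.33 over the 36 and 0.11 over all, and the median SE 0.80 and 0.16, so that the errors of the 36 were larger too. The median change was −0.12 over the 36 and 0 over all.

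In 9 of the 36 probes 1 line held a single level. All 8 low-RFI pigs were at the upper level of TC414168, TC515624, CX058359 and CCDC17, while the high-RFI pigs were split 4 and 4. Their changes were 2.87 (SE 0.995), 3.02 (SE 0.893), 1.97 (SE 0.528) and 2.28 (SE 0.627), with adjusted p of 0.46 to 0.68 in limma. These changes are not exact, since the lower pigs of TC414168 and TC515624, and 1 lower pig each of CX058359 and CCDC17, were not well above background. Under normexp background correction, whose offset shrinks the changes of dim probes, they were 1.19, 0.98, 1.11 and 1.13. Within single slides the change ran from 0.14 to 5.1 for TC414168 and from 0.1 to 5.64 for TC515624, both lowest within slide 4. It ran from 1.81 to 2.08 for CX058359 and from 1.98 to 2.53 for CCDC17. For CCDC17 the lowest, median and highest levels were −1.66, −0.87 and −0.61 in low-RFI and −5.55, −3.05 and −1.0 in high-RFI pigs, so the low-RFI pigs lay close together and the high-RFI pigs did not.

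No high-RFI pig was at the upper level of C8orf37 or of the unknown A_72_P138296. C8orf37 had a lowest, median and highest level of −4.46, −1.27 and −0.54 in low-RFI and −4.51, −4.10 and −3.24 in high-RFI pigs, and a change of 2.09 (SE 0.495, adjusted p = 0.39 in limma). A_72_P138296 was at −3.24, −0.47 and 1.75 in low-RFI and −4.60, −4.10 and −1.46 in high-RFI pigs, with a change of 2.88 (SE 0.763, adjusted p = 0.46 in limma, and 1.81 under normexp). In both, 4 or 5 low-RFI pigs were high and the rest of that line lay among the high-RFI pigs.

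All 8 high-RFI pigs were at the upper level of the unknown A_72_P347013 and of CV871009. Their levels were −3.71, −3.08 and −1.97 (lowest, median and highest) for A_72_P347013 and 0.20, 1.88 and 4.03 for CV871009, against −6.98, −5.83 and −3.03 and −3.70, −1.35 and 2.32 in low-RFI pigs. The changes were −2.46 (SE 0.518, adjusted p = 0.229) and −3.04 (SE 0.766, adjusted p = 0.433) in limma. For A_72_P347013, 5 low-RFI pigs were not well above background, so its change is not exact, and it was −0.36 under normexp.

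Among the probes with both levels in each line, TC463335 was at −3.83 (SE 1.10), TC478935 at −3.32 (SE 0.792), SCGB1A1 at −3.16 (SE 1.06) and TC419114 at −2.25 (SE 0.587), with adjusted p of 0.39 to 0.649 in limma. At least 1 lower pig of each was not well above background, and under normexp the changes were −1.17, −1.01, −2.07 and −0.79. TC478935 was called without high-RFI pig 2 (−3.96, adjusted p = 0.0342), the 1 pig of that line at its lower level. C8orf37 was called under normexp background correction (1.29, adjusted p = 0.0307). Of the probes well above background in all pigs, TC423681 was at 1.83 (SE 1.34, adjusted p = 0.979), AFMID at 0.34 (SE 1.31, adjusted p = 0.998), the COX8 probe at −0.33 (SE 0.945, adjusted p = 0.998) and ALOX12 at −1.07 (SE 0.778, adjusted p = 0.979), and none of these was called. The change of ALOX12 was −0.53 under normexp. That of TC423681 was 6.61 within slide 2 and 0.03 to 0.51 within the other slides.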

How the data were processed

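The 16 liver RNAs, labelled with Cy3, were each put on a 1-colour Agilent array of pig probes. Per the file headers, Agilent Feature Extraction 10.7.3.1 (protocol GE1_107_Sep09) read the scans, and the processed signal is a linear intensity from which each array's background was subtracted. The authors' deposited table holds log2 values of 27938 spots, equal to the log2 processed signal minus the array's median over these spots (largest difference 4.5e-08). It lists 22 of the 36 probes. R 2.10.0 is named in the submitters' processing notes.

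Levels were computed as log2 processed signal minus the 75th percentile of each array over non-control spots. For the comparison of the lines, outlier spots were left out, and limma 3.58.1 in R 4.3.3 was fitted over 30097 probes with Benjamini-Hochberg adjustment and a threshold of 0.05. A change is given with its SE, and 1 array per pig limits the precision. The fit was tested on simulated data with 1 centre per line for each probe, which does not cover probes with 2 levels within a line. The labels do not say that the pigs were independent beyond 1 pig per array. The p-values set a difference against the spread between these pigs and assume that the pigs are independent. Where 3 probes had a larger gap that set fewer than 4 pigs apart, the gap with at least 4 pigs on each side was used. Other work used jsonlite 2.0.0, the package data.table (1.17.8), Python 3.11.15, pandas 2.3.3 and numpy 2.4.6.

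The probes, lists and markers were chosen with earlier results of these data known. By rule the text names probes that share a division, those with a gene symbol, called ones, the 12 with the largest gap and the 3 nearest the threshold on either side. All others of the 36, their companion probes and the sequence AATAAA were named after their values were seen.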

Additional observations from a re-analysis of the deposited data

Results flagged for a closer look

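Within a line of 8 pigs, 9 of the 72 combinations of probe and line had 1 pig far from its 7 line mates, its distance to the next pig, as a share of the range of the line, being above Dixon's critical value at a confidence of 95%. Chance gives such a pig in about 1 in 20 groups, and probes chosen for a gap are more open to it.

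Low-RFI pig 2 was the highest of its line for TC478935, at −1.31 with the next pig at −4.54, and the lowest for TC515624, at −2.74 with the next at −1.79, and for TC415907, at −7.36 with the next at −5.04, where neither pig was well above background and the distance is therefore no measurement. High-RFI pig 2 was the lowest of its line for TC478935, at −6.18 with the next at −1.78.

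High-RFI pig 8 was the lowest of its line for TC419114, at −4.74 with the next at −2.58, and for TC426618, at −6.83 with the next at −4.47. High-RFI pig 6 was the highest for C8orf37, at −3.24 with the next at −3.97, and the lowest for AK233644, at −1.18 with the next at 0.87. High-RFI pig 5 was the lowest for the unknown A_72_P082291, at −7.90 with the next at −3.71. The low values of TC478935, TC426618 and A_72_P082291 in high-RFI pigs were not well above background, so their distances are not exact.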

How the results depend on the processing

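The number of probes with 2 levels, 36, was 12 under normexp with an offset of 50, 15 with a filter on all arrays, 59 at a gap of over 1.2, 18 at over 2, 56 with 3 pigs a side and 22 in the authors' table, and 26 to 52 under the other 5 settings. Under normexp 9 of the 15 bright probes but 1 of the 11 and 2 of the 10 dim ones kept a gap of over 1.5, and 23 of 36 kept their division. Of the 36, 31 passed under quantile normalisation and 33 under median scaling. The 1 shared division became 0 under normexp, the filter on all arrays, gaps over 2 and 5 pigs a side, 2 at gaps over 1.2, 3 with 3 pigs a side and 4 with no filter.

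The 1 called probe became 2 under normexp and 0 with the filter on all arrays, which leaves AK233644 out. It became 0 with array noise as a covariate or without the marked arrays, both chosen after seeing the data. Over all measured probes the calls were 3 in the main fit, 2 under normexp, 1 with the filter and 0 in each of the fits for noise. Leaving out each pig gave 1 to 2 of the 36 and 2 to 5 of all probes. Without high-RFI pig 2 it was 2 of the 36 and 3 of all. With the replicate number as a block 1 of the 36 and 4 of all probes were called. Pairing was to be accepted only if every same-numbered pair had a correlation over 0.1, and 6 of 8 did (0.05 to 0.40), so the numbers are not treated as pairing the pigs. The block changed no call among the 36.

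Among the 24 probes whose change was followed through the settings, changes that were not called turned sign as follows; the cause was not tested. Each of the other 12 turned within at least 1 slide. Within slide 1, BG834976 was at 1.74. Within slide 2, A_72_P082291 was at 2.18, BP461346 at −3.79 and ALOX12 at 0.01. Within slide 3, TC435990 was at 1.57 and BF191498 at 0.39. Within slide 4, AFMID was at −2.79, COX8 at 2.52, TC419114 at 0.57 and BF191498 at 0.06. With array noise, A_72_P082291 was at 0.39, BP461346 at −0.08 and ALOX12 at 0.13, and without the marked arrays ALOX12 was at 0. Under normexp A_72_P082291 was at 0.01 and A_72_P327543 at 0.03, and with array weights COX8 was at 0.12 and BF191498 at 0.42. Leaving out 1 pig took AFMID to −0.17 to 0.90 and BP461346 to −0.01 to 0.78. Dim levels limit all this: lower levels not well above background have no order among themselves.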
